A study of Mus musculus with 16 samples.

Results

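Dexamethasone was compared with vehicle in the whole cerebellum of newborn mice, across all genes of the array. Arrays were chosen by the tissue and treatment named in their titles, which gave 4 dexamethasone and 4 vehicle cerebella, 8 of the 16 arrays in all. All mice were of the C57BL/6J strain and their organs were taken at postnatal day 7. The dexamethasone group received dexamethasone, a synthetic glucocorticoid, under a treatment that the title of the series calls chronic, and the vehicle group received the carrier alone. The sources used here do not give dose, schedule, sex or litter. The numbers in the titles run from B39 to B52 with dexamethasone and from B78 to B81 with vehicle, so any litter or order of collection that they follow cannot be told apart from treatment. The other 8 arrays hold whole lung of mice treated in the same 2 ways, and they serve as a comparison. Each array measured the RNA of a whole organ on an Affymetrix mouse array, and values are on a log2 scale, so a difference of 1 is a 2-fold change.

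Glucocorticoids enter cells and bind the glucocorticoid receptor, which moves to the nucleus, binds palindromic DNA elements at some genes and raises or lowers their transcription. In the newborn cerebellum, granule neuron progenitors are still dividing in the outer layer under Sonic hedgehog from Purkinje cells, while capillaries grow in, microglia spread and the first myelin forms. The enzyme Hsd11b2 inactivates natural glucocorticoids and is made by the dividing progenitors, and Hsd11b1 can regenerate them. The study set out to see how prolonged treatment with a glucocorticoid acts on the neonatal cerebellum and lung.

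The 8 arrays had the markers of their labelled tissue. The granule neuron factor Zic1 lay at 13.02 to 13.41, against 3.69 to 4.80 on the lung arrays, and the Purkinje cell protein Calb1 at 12.86 to 13.32, against 4.32 to 4.91. The lung surfactant gene Sftpc lay at 5.03 to 6.03, against 14.57 to 14.74 in lung. On the first principal component, with 38.0% of the variance, dexamethasone array B39 and vehicle array B79 were at the ends, at -35.45 and 34.13, and they had the lowest array weights, 0.451 and 0.59. A list of 19 brainstem and Hox genes differed between the arrays of both groups, with a mean level of 6.60 in B39, 5.70, 5.69 and 4.90 in the other dexamethasone arrays, 4.91 in B79 and 5.79 to 6.11 in the other vehicle arrays. Vehicle array B81 had the largest 3′ minus 5′ signal of the Gapdh control, at 0.518 against 0.044 to 0.178 on the others, and the highest 18S ribosomal RNA signal. Xist, which females transcribe, was at 11.28 to 11.41 on dexamethasone arrays B49 and B50 and vehicle array B81, and at 4.99 to 5.85 on the other 5. The Y-linked genes Kdm5d, Eif2s3y and Uty were lowest on B49, B50 and B81, so by these genes sex was not balanced between the groups. Counts are given with and without B39 or B79 for some of the lists that rest on them, and named genes whose calls ended without both are listed. Leaving out both did not balance the brainstem list between the groups. Its median log2 change was then -0.35, with 5 members called lower, against -0.02 and none called with all arrays.

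The response was broad and mostly small. Of 18193 genes, 874 passed the test, 4.8% of those tested, at an adjusted p under 0.05 in limma, and these are the genes said to be called. Of these, 516 rose (2.84% of genes tested) and 358 fell (1.97%), with a median change of 1.47-fold and 1.49-fold. Only 70 of the called genes moved by at least 2-fold, 40 up and 30 down. The 4 arrays of each group did not overlap for 2288 genes, 12.6% of those tested, with treated arrays higher for 7.13% and lower for 5.44%. Among called genes they did not overlap for 479 of the 516 that rose and 330 of the 358 that fell. Within a group the SD of a gene had a median of 0.155 with dexamethasone and 0.149 with vehicle. The median change over all genes was 0.01, and 51.5% of genes lay above 0. Single arrays moved the number of calls: without B80 305 genes rose and without B50 315, while without B79 201 fell, without B50 213 and without B49 217. Of the 874 genes, 523 were called in the same direction when B39 and B79 were both left out.

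The largest rises were in genes of several cell types, led by Fam107a, a gene that glucocorticoids and stress induce in brain. Values of single arrays are in the order B39, B49, B50 and B52 for dexamethasone and B78, B79, B80 and B81 for vehicle. Fam107a was at 10.86, 10.51, 11.18 and 11.20 with dexamethasone and at 7.47, 7.34, 6.75 and 8.38 with vehicle. The lowest treated array lay 2.14 above the highest vehicle array, and the change was 10.9-fold (log2 change 3.45 ± 0.58 SE, n = 4 and 4, limma adjusted p = 0.00242). All 3 of its probe sets were called. Mybpc1, a myosin-binding protein of slow muscle, was at 8.28, 7.90, 8.25 and 8.61 with dexamethasone and at 5.83, 5.95, 5.94 and 6.18 with vehicle. Its groups lay far apart and its rise of 2.29 ± 0.14 had a limma adjusted p of 3.05e-07, with 3 of 3 probe sets called. None of 19 other skeletal muscle genes was called, and their mean level was 5.13 to 5.29 with dexamethasone and 5.15 to 5.28 with vehicle, so the groups overlapped.

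Other large rises followed the same split of the arrays with narrower gaps. Ptchd4, a patched-domain membrane protein, was at 8.38, 9.10, 9.01 and 9.18 with dexamethasone and at 7.88, 6.85, 7.11 and 7.17 with vehicle. Itih3, a hyaluronan-binding protein expressed by astrocytes, was at 9.58, 8.45, 8.72 and 8.64 against 7.33, 6.64, 7.05 and 7.71. Both rose 3.17-fold, by 1.67 ± 0.21 and 1.67 ± 0.27 (limma adjusted p = 0.000359 and 0.00216). Fgf1, a growth factor without a signal peptide, was at 8.65, 8.21, 8.75 and 8.22 against 7.25, 6.54, 6.94 and 7.51, a rise of 1.40 ± 0.19 (limma adjusted p = 0.000539). Only 1 of the 3 probe sets of Fgf1 was called, and with its probe sets averaged it was not (adjusted p = 0.0583). Cebpg, a bZIP transcription factor that partners Atf4, was at 9.02, 9.91, 9.73 and 10.06 against 8.32, 8.31, 8.16 and 8.83 and rose by 1.28 ± 0.20. The tRNA methyltransferase-like Trmt1l, at 7.49 to 7.85 against 6.15 to 6.57, rose by 1.28 ± 0.12, and the zinc finger gene Zfp93, at 6.04 to 6.75 against 4.82 to 5.48, by 1.25 ± 0.17. B39 was the lowest treated array for Ptchd4, Cebpg and Zfp93 and the highest for Itih3.

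**Figure D1:**
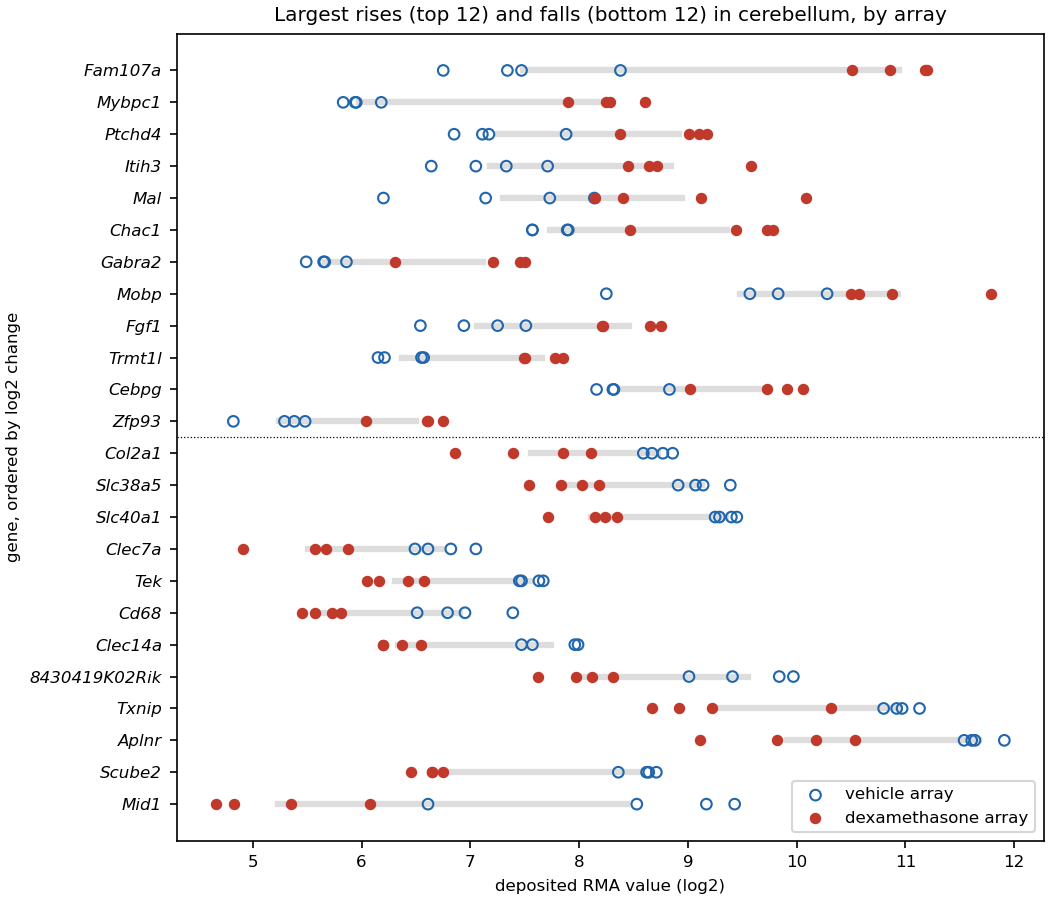
Deposited log2 values of the 12 largest rises (above the dotted line) and 12 largest falls (below it) among called genes whose groups do not overlap, with filled red points for dexamethasone and open blue points for vehicle cerebella. The grey bar joins the 2 group means. Fam107a and Mid1 show the widest separation of means, and the vehicle array of Mid1 at 6.61 is B80.

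The palindrome that the glucocorticoid receptor binds was searched as GNACA, then any 3 bases, then TGTNC, which reads the same on both strands, in the 250 bases before the start of each gene. Promoters came from the RefSeq table on GRCm38.p6, which held 20 of the 24 genes with the largest rises and falls. Only Fam107a and Txnip of these held the palindrome, and their windows are shown because they are the gene with the largest rise and a gene among the largest falls. Capitals mark the palindrome, and the window printed for Fam107a, on the minus strand, is chr14:8309780-8310029 and that of Txnip, on the plus strand, chr3:96557707-96557956.
Fam107a: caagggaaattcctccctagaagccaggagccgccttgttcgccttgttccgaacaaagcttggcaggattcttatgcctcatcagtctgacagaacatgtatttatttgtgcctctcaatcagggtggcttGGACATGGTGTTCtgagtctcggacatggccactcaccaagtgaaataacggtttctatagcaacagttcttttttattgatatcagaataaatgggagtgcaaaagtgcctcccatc
Txnip: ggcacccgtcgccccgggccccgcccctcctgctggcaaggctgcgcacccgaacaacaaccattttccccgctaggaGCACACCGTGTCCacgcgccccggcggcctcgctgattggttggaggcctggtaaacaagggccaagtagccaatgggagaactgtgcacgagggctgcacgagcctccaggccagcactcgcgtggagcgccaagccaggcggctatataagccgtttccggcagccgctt
The palindrome lay 118 to 106 bases before the start of the printed window in Fam107a and 172 to 160 bases before it in Txnip, where the gene fell. Fam107a had 3 windows in the table, for different starts. Another of them held the same palindrome, 120 to 108 bases before its start, and the remaining window did not hold one. A gene was counted as holding a motif if any of its windows did. Among genes with a promoter in the table it was in 4 of 433 that rose (0.924%), 2 of 263 that fell (0.76%) and 51 of 14452 tested (0.353%), against 0.387% of all 32851 windows of that length. The other called genes with the palindrome were Suox, Galnt11 and A230072C01Rik, which rose by 0.71, 0.48 and 0.60, and Fkbp7, which fell by 1.15, and they are named after their values were seen. The call for A230072C01Rik ended without B49, B50, B52 or B80 (limma adjusted p 0.0539 to 0.104). The single site AGAACA, which may overlap a palindrome and was searched on both strands, was in 12.5% of promoters of genes that rose, 15.6% of those that fell and 14.7% of those tested. These counts are descriptions, and a match in this window is not a binding site by itself.

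The largest falls were in genes of vessels, macrophages, hedgehog release and glucose sensing. Mid1, an X-linked ubiquitin ligase of microtubules, was at 6.08, 5.35, 4.83 and 4.66 with dexamethasone and at 9.17, 8.53, 6.61 and 9.43 with vehicle and fell by 3.21 ± 0.54 (limma adjusted p = 0.00243). Vehicle array B80 lay near the treated arrays, and without it the change was -3.82. Mid1 had 1 of 3 probe sets called, so its value rests on that probe set. Scube2, a secreted protein that releases Sonic hedgehog from cells, was at 6.65, 6.45, 6.65 and 6.75 with dexamethasone and at 8.62, 8.71, 8.36 and 8.64 with vehicle. These groups were tight and far apart, and Scube2 fell by 1.96 ± 0.29 (limma adjusted p = 0.000961). Txnip, which binds thioredoxin and limits glucose uptake, was at 10.32, 8.67, 9.22 and 8.92 against 11.13, 10.80, 10.92 and 10.97 and fell by 1.67 ± 0.26 (limma adjusted p = 0.00137). Treated array B39 lay between the other treated arrays and the vehicle arrays. The transcript 8430419K02Rik, at 7.62 to 8.31 against 9.01 to 9.97, fell by 1.55 ± 0.19 with 1 of 2 probe sets called. Col2a1, the collagen of cartilage, was at 6.86, 7.85, 7.39 and 8.11 against 8.59, 8.77, 8.86 and 8.67 and fell by 1.17 ± 0.21.

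Endothelial genes were the list with the most falls. Of 26 genes of endothelial junctions, surface and transcription factors, 12 fell and 1 rose, and the median log2 change was -0.50 against 0.01 over all genes. The mean level of the list was 6.95 to 7.03 on the treated arrays and 7.39 to 7.64 on the vehicle arrays, without overlap. Tek, the angiopoietin receptor, was at 6.05, 6.43, 6.16 and 6.57 with dexamethasone and at 7.45, 7.63, 7.47 and 7.67 with vehicle and fell by 1.25 ± 0.11 (limma adjusted p = 3.09e-05). Clec14a, an endothelial lectin, was at 6.55, 6.20, 6.20 and 6.37 against 7.57, 7.96, 7.47 and 7.99 and fell by 1.41 ± 0.15, with 1 of 2 probe sets called. The adhesion protein of endothelial junctions, Cdh5, at 5.29 to 5.72 against 6.34 to 6.84, fell by 1.11 ± 0.12. The tight junction protein Cldn5, at 9.41 to 9.59 against 10.26 to 10.63, fell by 0.89 ± 0.13, and the junction protein Esam by 0.66 ± 0.09. None of these 5 genes overlapped between the groups, and leaving out any array kept their calls. Flt1, a receptor that binds VEGF, went the other way, at 7.33 to 7.91 against 6.92 to 7.30, and rose by 0.57 ± 0.12 (limma adjusted p = 0.0134). That rise came from 1 of 4 probe sets and was not called with the probe sets averaged (0.765) or without B39 and B79 together (0.085). In whole organ RNA, fewer cells of a type and less RNA per cell cannot be told apart.

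Genes of vessel signalling changed at receptors and at an angiopoietin rather than across the list. Of 23 genes of VEGF, angiopoietin, apelin and Dll4 signalling, 4 fell and 1 rose, with a median of -0.08. Aplnr, the apelin receptor of sprouting endothelium, was at 9.11, 10.54, 9.82 and 10.18 with dexamethasone and at 11.54, 11.91, 11.61 and 11.64 with vehicle. The vehicle arrays lay close together and the treated arrays were more spread and all lower, and Aplnr fell by 1.76 ± 0.32 (limma adjusted p = 0.004). Angpt1, a ligand of Tek made by pericytes and other perivascular cells, was at 8.16 to 8.55 against 9.07 to 9.42 and fell by 0.83 ± 0.11. Tie1, a partner of Tek, at 5.32 to 5.90 against 6.14 to 6.49, fell by 0.70 ± 0.13.

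Part of the pericyte list fell. Of 19 pericyte and smooth muscle genes 6 fell and none rose, with a median of -0.47, and the mean level was 7.29 to 7.34 with dexamethasone and 7.64 to 7.79 with vehicle. Without B49 or B79, or without B39 and B79 together, 4 fell. The growth factor receptor of pericytes, Pdgfrb, was at 8.45, 8.47, 8.64 and 8.45 against 9.27, 9.20, 9.17 and 9.27 and fell by 0.72 ± 0.10 (limma adjusted p = 0.0005). The channel subunit Abcc9, the G-protein regulator Rgs5 and the receptor Notch3 fell by 0.76 ± 0.11, 0.69 ± 0.12 and 0.47 ± 0.09, and vitronectin, Vtn, by 0.58 ± 0.14. Vtn was no longer called without B39, B49 or B79 (limma adjusted p 0.0505 to 0.073), whereas the other 4 kept their calls without any array.

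Among blood-brain barrier transporters single members moved in both directions. Of 19, 4 fell and 1 rose, with a median of -0.23. The iron exporter Slc40a1 was at 7.71, 8.15, 8.24 and 8.35 with dexamethasone and at 9.45, 9.40, 9.25 and 9.29 with vehicle and fell by 1.24 ± 0.13 (limma adjusted p = 9.68e-05). Tfrc, the transferrin receptor that brings iron into cells, was at 10.78 to 11.00 against 10.01 to 10.36 and rose by 0.66 ± 0.11 (limma adjusted p = 0.00244). The glutamine transporter Slc38a5, at 7.54 to 8.18 against 8.91 to 9.39, fell by 1.24 ± 0.24. The drug efflux pump Abcb1a fell by 0.72 ± 0.13 and the organic anion pump Abcc4 by 0.47 ± 0.10, the latter not called without B49 or B81 (0.0565 and 0.0505).

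Part of the basement membrane and collagen lists fell. All 20 basement membrane genes had a log2 change below 0, with a median of -0.42, and 8 of them fell. Without B79 4 fell and without B49 5, and without B39 and B79 together 3 fell. The list's mean level was 8.05 to 8.29 with dexamethasone and 8.54 to 8.67 with vehicle. The chains of type IV collagen, Col4a1 and Col4a2, fell by 0.53 ± 0.09 and 0.50 ± 0.11, and the laminin chains Lama2 and Lamb1 by 0.67 ± 0.10 and 0.56 ± 0.11. Nidogen, Nid1, which links laminin to collagen, was at 10.42, 10.81, 10.71 and 10.98 against 11.36, 11.34, 11.26 and 11.37 and fell by 0.60 ± 0.12 (limma adjusted p = 0.00574). Col4a2 was not called without B79 or B81 (0.0565 and 0.0505).

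Of 20 interstitial collagens and associated proteins 7 fell and none rose, with a median of -0.44. Without B49, B52, B79 or B81, or without B39 and B79 together, 5 fell. Col1a1 was at 8.33, 8.33, 8.23 and 8.33 with dexamethasone and at 9.56, 9.57, 9.17 and 9.54 with vehicle and fell by 1.16 ± 0.16 (limma adjusted p = 0.000539). Col3a1, at 10.45 to 10.81 against 11.45 to 12.03, and the crosslinking enzyme Loxl1, at 7.97 to 8.15 against 8.90 to 9.35, each fell 2.0-fold. Col5a2 and fibronectin, Fn1, fell by 0.91 ± 0.12 and 0.74 ± 0.12. Beside these, 19 meningeal fibroblast genes had a mean level of 8.07 to 8.40 with dexamethasone and 7.86 to 8.76 with vehicle, with vehicle array B80 the lowest. Of them Foxc1 fell by 0.63 ± 0.16 and Bgn by 0.45 ± 0.12, but both calls ended without B49, B52, B78, B79 or B81, that of Foxc1 also without B50 and that of Bgn without B39 (limma adjusted p 0.0543 to 0.125). The median of the meningeal list was -0.24, with 6 members above 0, and -0.05 without B79. How much meningeal tissue each dissection held was not tested.

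**Figure D2:**
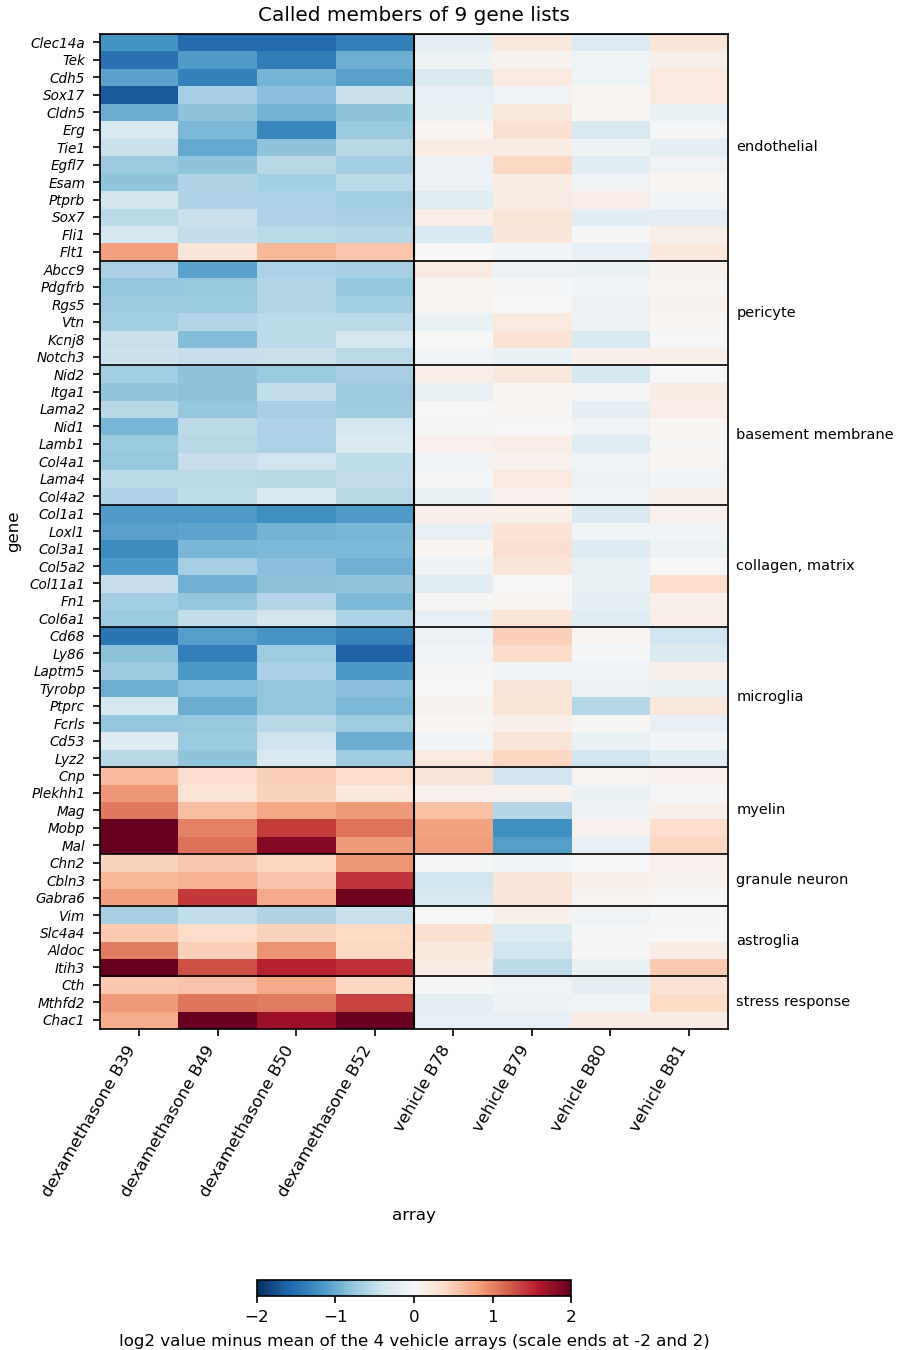
Log2 value of each called member of 9 gene lists on each cerebellar array, minus the mean of the 4 vehicle arrays (blue lower, red higher, colour scale ending at -2 and 2). Apart from Flt1, which is higher, the vessel, matrix and microglial genes are lower on the 4 dexamethasone arrays than the vehicle mean, some only slightly. The myelin genes are highest in B39 and, except Plekhh1, lowest in B79.

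Part of the microglial list fell. Of 25 microglia and macrophage genes 8 fell and none rose, with a median of -0.34, and the list's mean level was 6.98 to 7.25 with dexamethasone and 7.43 to 7.72 with vehicle. Without B52 or B79, 4 fell, and without B49, B50 or B78, 5. Tyrobp, the signalling adaptor of microglial receptors, was at 7.96, 8.07, 8.16 and 8.09 against 8.94, 9.19, 8.82 and 8.79 and fell by 0.86 ± 0.14 (limma adjusted p = 0.00153). Ly86, a partner of a Toll-like receptor homologue, at 7.82 to 8.73 against 9.14 to 9.82, fell by 1.13 ± 0.19. The lysosomal proteins Laptm5 and Cd68 fell by 0.92 ± 0.15 and 1.27 ± 0.31, and the microglial Fc receptor-like gene Fcrls by 0.70 ± 0.15. Laptm5 was called on 1 of 5 probe sets and not with them averaged (limma adjusted p = 0.0583), and Fcrls was not called without B39 and B79 together (0.068). Clec7a, a pattern receptor of activated microglia, was at 5.87, 4.91, 5.67 and 5.57 against 7.05, 6.82, 6.61 and 6.49 and fell by 1.24 ± 0.31 (limma adjusted p = 0.0306). P2ry12, a receptor of resting microglia, had the highest change of the list at 0.11. The calls for Cd68 and Clec7a ended without any of B50, B52, B79 and B80, for Cd68 also without B39 and for Clec7a without B49 or B78 (limma adjusted p 0.0577 to 0.0978 over both genes). Of 14 neutrophil genes the calprotectin genes S100a8 and S100a9 fell, by 1.72 ± 0.44 and 1.59 ± 0.41, with overlapping arrays. S100a8 was at 8.19 in treated array B39 and at 5.77 to 5.89 in the other 3, against 7.21 to 8.82 with vehicle, and its change was -2.31 without B39. Neither was called without B49, B50, B52, B78 or B79 (limma adjusted p 0.0871 to 0.127), in a fit of the cerebellar arrays only (both 0.13) or with a variance trend (0.0629 and 0.0644). None of 12 lymphocyte or 11 erythroid genes was called, and the erythroid list lay at 5.14 to 5.40 with dexamethasone and 5.21 to 5.29 with vehicle.

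Myelin genes had the highest median of the lists, but their level moved with 2 arrays. All 20 genes of myelin and mature oligodendrocytes had a change above 0, with a median of 0.45, and 5 rose. The mean level of the list was 9.01 in B39 and 8.31 to 8.56 in the other treated arrays, and 7.49 in B79 and 7.92 to 8.32 in the other vehicle arrays, so the groups met at their ends. Mal, a lipid raft protein of myelin, was at 10.09, 8.40, 9.12 and 8.15 with dexamethasone and at 8.14, 6.20, 7.14 and 7.73 with vehicle, a rise of 1.64 ± 0.38 (limma adjusted p = 0.0189). Mobp, a structural protein of compact myelin, was at 11.79, 10.50, 10.88 and 10.57 against 10.28, 8.25, 9.57 and 9.83 and rose by 1.45 ± 0.38. Mag, an adhesion protein of the inner myelin layer, rose by 0.82 ± 0.20, the enzyme Cnp by 0.45 ± 0.12 and Plekhh1 by 0.45 ± 0.12. B39 was the highest treated array for each of these 5 genes, and B79 the lowest vehicle array for Mal, Mobp, Mag and Cnp. Without B50, B79 or B80 no gene of the list was called, without B39 1, without B52 2 and without B81 3, and none on the cerebellar arrays alone. With the level of the brainstem list as a covariate 8 rose and the median was 0.45. That level differed little between the groups over all arrays (median log2 change -0.02), so this covariate could hardly move a change. Without B39 and B79 together none was called and the median was 0.28. Under the latter setting the brainstem list itself was lower with dexamethasone, with a median of -0.35. Among 15 precursor genes Gpr17, a receptor of differentiating precursors, was at 10.58, 10.23, 10.63 and 10.43 against 9.75, 9.19, 9.69 and 9.60 and rose by 0.91 ± 0.14 (limma adjusted p = 0.00107), a call kept without any array. Olig1 was at 11.44 to 12.25 against 11.32 to 12.02 and was not called.

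**Figure D3:**
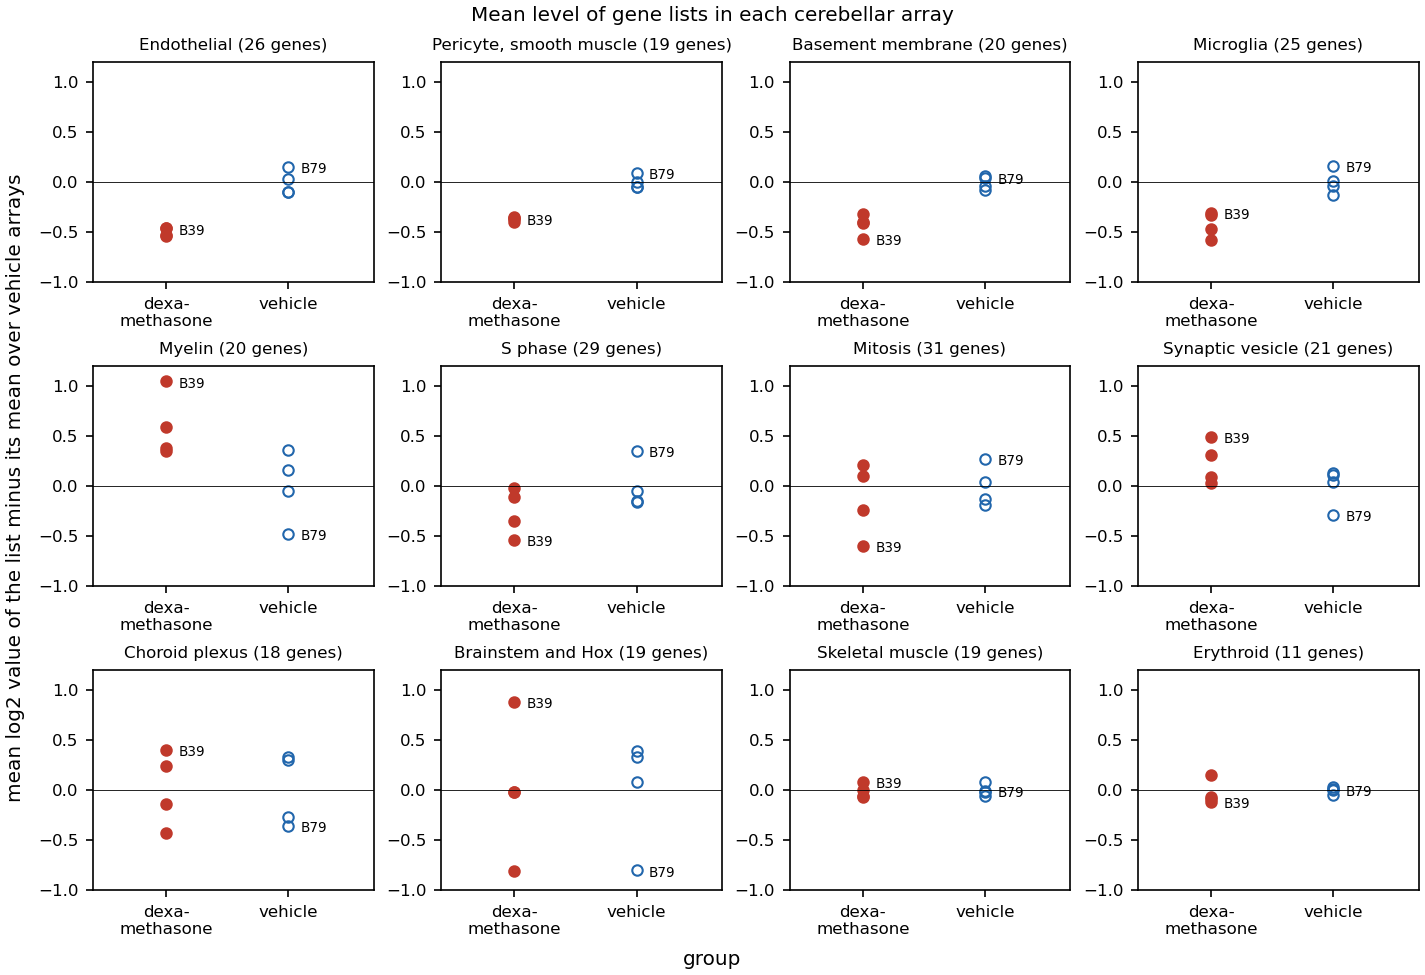
Mean log2 level of 12 gene lists on each cerebellar array, as the difference from the mean of the 4 vehicle arrays, with filled red points for dexamethasone and open blue points for vehicle and with B39 and B79 labelled. The endothelial, pericyte, basement membrane and microglial lists separate the groups, whereas brainstem genes spread within both groups with B39 at the top.

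Neuronal genes changed little as lists, with a few members of granule neurons and of GABA-A receptors higher. Of 25 genes of differentiating and mature granule neurons 3 rose and none fell, with a median of 0.15. The alpha6 subunit of the GABA-A receptor, Gabra6, a mark of mature granule neurons, was at 9.31, 9.89, 9.23 and 10.40 with dexamethasone and at 8.15, 8.73, 8.54 and 8.49 with vehicle, a rise of 1.23 ± 0.22 (limma adjusted p = 0.00419). Both of its probe sets were called. Cbln3, a synaptic organiser secreted by granule neurons, rose by 0.84 ± 0.19, except without B78 (limma adjusted p = 0.0512) or with its probe sets averaged (0.15), and the Rac regulator Chn2 by 0.57 ± 0.11. Gabra2, another alpha subunit, was at 6.31, 7.50, 7.46 and 7.21 against 5.65, 5.86, 5.66 and 5.49 and rose by 1.46 ± 0.23, with B39 the lowest treated array. Of 15 GABA-A receptor genes these 2 subunits rose and the median was 0.24. Neurod1, a factor of postmitotic granule neurons, had a log2 change of 0.15 ± 0.25. None of 17 progenitor genes was called, with Atoh1 at 8.65 to 9.63 against 8.69 to 9.40 and a list median of -0.02.

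Purkinje cell and interneuron genes gave single calls. Of 17 Purkinje cell genes only the G-protein subunit Gng13 rose, by 0.71 ± 0.20 (limma adjusted p = 0.0485), and it was not called without B49, B52 or any vehicle array (0.0662 to 0.122), or after quantile or loess normalization (0.0726 and 0.0527). Calb1 had a change of 0.13 ± 0.13. The calcium buffer of basket and stellate cells, Pvalb, was at 10.18, 10.71, 10.09 and 11.39 against 9.57, 9.68, 9.24 and 9.72 and rose by 1.04 ± 0.21 (limma adjusted p = 0.00931), though not on the cerebellar arrays alone (0.0548). Tfap2a, a factor of interneuron precursors, was at 8.55 to 8.88 against 9.34 to 9.68 and fell by 0.72 ± 0.16, but not without B50 or B79 (0.0671 and 0.0647). Synaptic vesicle, voltage-gated channel and glutamate receptor genes had medians of 0.25, 0.26 and 0.25, and none of their 21, 21 and 20 members was called. The vesicle list was at 10.89 in B39 and 10.11 in B79 against 10.43 to 10.70 on the other 6 arrays. Without B39 and B79 the 3 medians were 0.12, 0.03 and 0.09. With the level of the brainstem list as a covariate they were 0.24, 0.26 and 0.25. That level differed little between the groups over all arrays (median log2 change -0.02), so the covariate could hardly move these medians. The brainstem list had a median of -0.35 without B39 and B79, so leaving them out did not balance it between the groups.

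Astroglial genes moved in both directions. Of 26 astrocyte and Bergmann glia genes 3 rose and 1 fell, with a median of 0.04. Vimentin, Vim, a filament of radial and immature glia and of vessels, was at 11.59, 11.76, 11.66 and 11.80 with dexamethasone and at 12.25, 12.35, 12.19 and 12.23 with vehicle. The groups lay 0.39 apart and Vim fell by 0.55 ± 0.08 (limma adjusted p = 0.00107), with 3 of 3 probe sets called. Itih3 rose as given above, and the glycolytic enzyme of astrocytes, Aldoc, at 12.78 to 13.41 against 11.97 to 12.60, by 0.70 ± 0.15 (limma adjusted p = 0.0123). Aldoc was not called on the cerebellar arrays alone (0.0588), with its probe sets averaged (0.0693) or without B39 and B79 together (0.0757). The bicarbonate transporter Slc4a4 rose by 0.43 ± 0.12, a call that held only with all arrays or without B78 (0.0677 to 0.138). Gfap, another filament of astrocytes, was at 10.35 to 10.86 against 10.82 to 11.58 and was not called with its brightest probe set (limma adjusted p = 0.238), but was with its probe sets averaged (0.0304).

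Calls in the glucocorticoid pathway itself were of single genes, beside 4.8% called among all genes tested. The receptor Nr3c1 was at 9.23 to 9.41 with dexamethasone and 9.34 to 9.60 with vehicle, and in a list of 12 genes of the receptor, its chaperones and its hormone's metabolism and export only the efflux pump Abcb1a, given above, was called. Of 26 genes that glucocorticoids induce in many tissues, 2 rose, Fam107a and Bcl6, beside 2.84% of all genes tested. The median was 0.11, and the lowest change of the list was -1.01, with no member called lower. Bcl6, a transcriptional repressor, was at 6.58, 5.80, 6.20 and 6.05 against 5.45, 5.09, 5.40 and 5.93, with overlapping arrays, and rose by 0.69 ± 0.18, a call kept only without B49 or B81 (limma adjusted p 0.0534 to 0.115 without the others). The feedback chaperone Fkbp5 was at 9.03 to 9.13 with dexamethasone and 8.97 to 9.14 with vehicle. The anti-inflammatory leucine zipper gene Tsc22d3 was at 8.69 to 9.07 against 8.38 to 9.06, and the kinase Sgk1 at 9.68 to 9.93 against 9.58 to 10.14. Their arrays overlapped and none was called. The clock gene Per1 also overlapped, at 6.97 to 7.20 against 6.58 to 7.78. Hsd11b1 was at 8.09 to 8.62 against 7.80 to 8.12, a change of 0.41 ± 0.12 that just missed the threshold (limma adjusted p = 0.06), and it was called without B49 (0.0261) and with dim genes left out (0.0331). Hsd11b2 was at 8.59, 9.22, 8.83 and 9.08 against 9.05, 9.60, 9.25 and 9.44 and was not called (0.285). Among 17 genes of FoxO, insulin and glucose sensing, Txnip, its relative Arrdc4 (-0.60 ± 0.13, and -1.19 with its probe sets averaged) and the transcription factor Foxo3 (-0.57 ± 0.15) fell, and Foxo3 did not without B49, B50, B52, B79 or B80 (0.081 to 0.114).

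Single genes of the amino acid response and of glutathione metabolism rose. Of 24 amino acid and integrated stress response genes 3 rose and none fell, with a median of 0.12, and 5 rose without B81. Chac1, which degrades glutathione and is induced through Atf4, was at 8.47, 9.73, 9.44 and 9.78 with dexamethasone and at 7.57, 7.57, 7.90 and 7.89 with vehicle, a rise of 1.62 ± 0.24 (limma adjusted p = 0.000961). The mitochondrial folate enzyme Mthfd2, at 8.98 to 9.47 against 7.93 to 8.52, rose by 1.08 ± 0.14, and the cysteine-producing enzyme Cth by 0.58 ± 0.11. Gstm1, a glutathione transferase with close relatives that its probes may also detect, was at 11.68, 11.40, 11.56 and 11.30 against 10.36, 10.29, 10.41 and 10.43. Its vehicle arrays lay close together below all treated arrays, and it rose by 1.11 ± 0.12 (limma adjusted p = 6.19e-05). Nfe2l2, the transcription factor of antioxidant genes, rose by 0.71 ± 0.09 on its brighter probe set, but its change was -0.0594 with both averaged. Of 23 antioxidant genes those 2 rose and 1 fell, Gpx8, by 0.49 ± 0.13, which was not called without any one array (0.0526 to 0.149), and 14 of the list lay below 0.

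Metabolic and chaperone lists gave a single call each. Hexokinase Hk2 rose by 1.17 ± 0.31 among 22 hypoxia and glycolysis genes. It was at 7.84, 9.02, 8.75 and 9.61 with dexamethasone and at 7.52 to 7.82 with vehicle, and its call ended without any array but B39 (limma adjusted p 0.0681 to 0.104). Msmo1, a sterol oxidase of cholesterol synthesis, rose by 0.69 ± 0.16 among 24 genes with a median of 0.25, of which 22 lay above 0, and was not called without B81 (0.05). The inducible chaperone Hspa1b, which has a near-identical copy that its probes may share, rose by 0.81 ± 0.18 among 23 chaperones, except without B49, B50, B79 or B80 (0.053 to 0.0672). Among 23 ribosomal protein genes Rps6 fell by 0.67 ± 0.11 on 1 of 2 probe sets, and the list median was -0.08. None of 29 oxidative phosphorylation genes was called.

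Hedgehog genes were examined because the pathway drives the progenitors. Of 18, Scube2 and Gli3 fell and none rose, with a median of -0.06. Gli3, a Gli factor that acts mainly as a repressor, was at 7.59, 7.99, 7.97 and 8.12 against 8.45, 8.42, 8.50 and 8.47 and fell by 0.54 ± 0.14 (limma adjusted p = 0.0389). Its groups did not overlap, yet the call was kept only without B52 (0.0685 to 0.107 without the others). The ligand Shh was at 8.78, 8.75, 8.56 and 8.90 against 8.13, 8.26, 8.29 and 8.44, without overlap, a change of 0.47 ± 0.22 that was not called (0.289) but was on the cerebellar arrays alone (0.0336). The targets Gli1 and Ptch1 had changes of 0.09 ± 0.21 and 0.24 ± 0.12 and neither was called.

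Single genes of cell division were called lower, beside 1.97% of all genes tested. Of 29 S phase genes 26 had a change below 0 and 1 fell, the DNA polymerase subunit Pole, by 0.57 ± 0.16, and the median was -0.27. Of 31 mitosis genes 21 were below 0 and 1 fell, the centromere histone Cenpa, by 0.77 ± 0.21, and the median was -0.13. Mki67, a mark of cycling cells, was at 10.90, 11.64, 11.31 and 11.67 with dexamethasone and at 11.88, 12.19, 11.95 and 12.07 with vehicle. Its groups did not overlap, and its change of -0.64 ± 0.22 was not called (limma adjusted p = 0.114) but was with array weights (0.0366). Mycn was at 10.15 to 11.16 against 10.57 to 11.02, Ccnd1 at 10.47 to 10.71 against 10.57 to 10.83 and Pcna at 12.36 to 12.70 against 12.46 to 12.93, all with overlap and none called. Cdk6, a kinase of the G1 phase, fell by 0.49 ± 0.12 among 20 G1 genes. Pole was not called without any array but B52, Cenpa without any but B52 and B78, and Cdk6 without B39, B49, B50, B79 or B80 (limma adjusted p 0.0509 to 0.162 over the 3 genes). The mean level of the S phase list was lowest in B39, at 9.01, and highest in B79, at 9.91, against 9.20 to 9.54 on the other 6 arrays, and without those 2 the medians were -0.07 for S phase and 0.04 for mitosis.

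**Figure D4:**
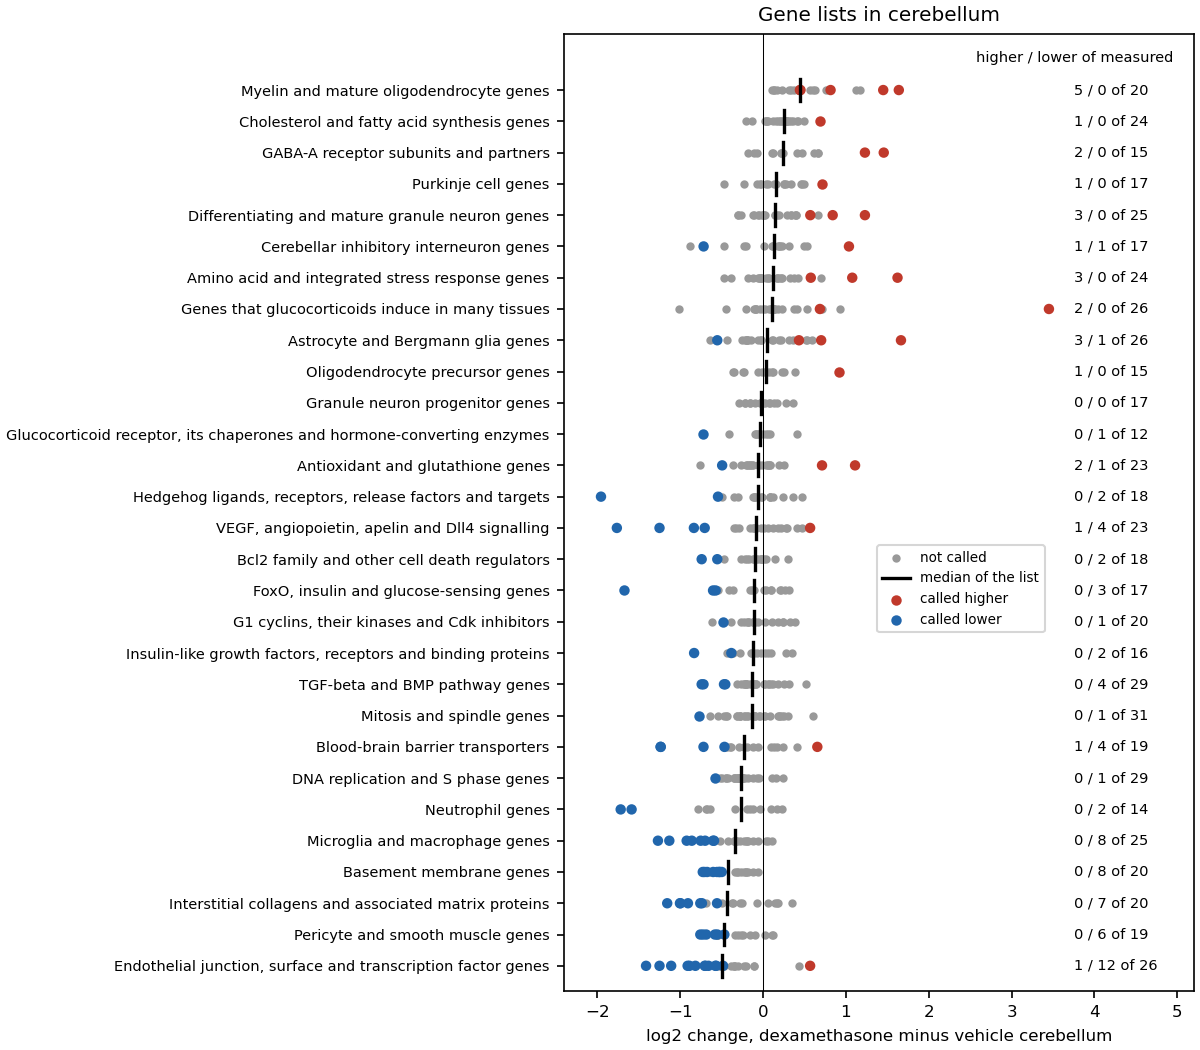
Log2 change of each measured member of 29 gene lists, dexamethasone minus vehicle cerebellum, with called members in red (higher) and blue (lower), the others in grey and the list median as a black tick. The numbers at the right give members called higher and lower of those measured, from 5 and 0 of 20 for myelin to 1 and 12 of 26 for endothelial genes.

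The genes called at the highest signal showed modest changes. The 8 brightest that rose were Cnp, Aldoc, the Wnt pathway scaffold Apc, Hacd3, Zfand5, Hax1, Ahcyl1 and the helicase Eif4a2, and the last 6 rose by 0.31 to 0.48. Zfand5, a zinc finger protein of protein turnover, was at 12.31, 12.50, 12.30 and 12.44 with dexamethasone and at 11.96, 11.91, 11.90 and 11.86 with vehicle (limma adjusted p = 0.00288). It was called whichever array was left out, and 2 of its 7 probe sets were called. Leaving out B50 or B80 ended the calls of the other 5, as did B39, B49, B52 or B79 for Apc, any array for Hacd3, B49 or B78 for Hax1, B52, B79 or B81 for Ahcyl1, and B39, B52, B79 or B81 for Eif4a2 (limma adjusted p 0.0501 to 0.147). The 8 brightest that fell were Rpgrip1, the BMP and TGF-beta mediator Smad4, Vim, Tpm4, Col4a1, Cxxc5, the phosphatase Ctdsp2 and Col3a1. Ctdsp2 was at 11.08 to 11.14 against 11.37 to 11.52 and fell by 0.32 ± 0.07 with 3 of 3 probe sets called (limma adjusted p = 0.0153). Rpgrip1, Smad4, Tpm4 and Cxxc5 fell by 0.38 to 0.59. Their calls ended without B49, B52, B78, B79 or B80 for Rpgrip1, B50, B79 or B81 for Smad4, B39, B50, B79 or B80 for Tpm4, and B49, B50, B52, B79 or B81 for Cxxc5 (limma adjusted p 0.0525 to 0.11).

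Calls of single genes depended on the probe set and on the arrays used. Of 133 called genes that are named, 36 were not called with the probe sets of each gene averaged (limma adjusted p 0.0559 to 0.953). Beside those given above under that setting, they were Apc, B2m, Bcl6, Bmf, Cnp, Cxxc5, Fgf7, Fosl2, Foxo3, Fzd6, Galnt11, Gli3, Gng13, Ier5, Igfbp7, Loxl1, Lpl, Msmo1, Notch2, Notch3, Ptprc, Racgap1, Rpgrip1, Slc4a4, Tfap2a, Tgfbr2 and Zfand5, and Atad2, Atad5 and Epb41l4b, described with lung. Another 14 kept the call while the change moved by over 1.5 times. It was -1.11 for Mid1, 1.48 for Mybpc1, 0.96 for Ptchd4, 0.59 for Cebpg, 0.53 for Trmt1l, -0.79 for 8430419K02Rik, -0.57 for Fkbp7, -0.80 for Clec14a, -0.65 for Cdh5, -0.52 for Angpt1, -0.35 for Lamb1, -0.44 for Cenpa and -0.51 for Ctdsp2, with Arrdc4 as given. Without B39 and B79 together 49 of the 133 were not called (limma adjusted p 0.0533 to 0.307). These were Ahcyl1, Aldoc, Apc, B2m, Bambi, Bcl6, Bgn, Bok, Cd68, Cdk6, Cenpa, Clec7a, Cnp, Col4a2, Cxxc5, Eif4a2, Fcrls, Flt1, Fosl2, Foxc1, Gbp2, Gli3, Gng13, Gpx8, Hacd3, Htra1, Icam1, Id1, Ier5, Igfbp7, Lamb1, Lpl, Mag, Mal, Mobp, Msmo1, Notch2, Plekhh1, Plxna2, Pole, Racgap1, Rpgrip1, Slc38a5, Slc4a4, Smad4, Tfap2a, Tpm4, Tppp and Vtn. A fit of the 8 cerebellar arrays without lung ended 38 calls (0.0513 to 0.134). These were A230072C01Rik, Abcc4, Aldoc, Apc, Atad2, Atad5, Bambi, Bcl6, Bgn, Cenpa, Cnp, Eif4a2, Fgf7, Fosl2, Gbp2, Gng13, Gpx8, Hax1, Hk2, Hspa1b, Htra1, Icam1, Ier5, Igfbp7, Mag, Mal, Mobp, Plekhh1, Pole, Ptprc, Pvalb, Racgap1, Rpgrip1, S100a8, S100a9, Slc4a4, Tgfbi and Tpm4. With the Xist level as a covariate 22 calls ended (limma adjusted p 0.0513 to 0.082). They were those of A230072C01Rik, B2m, Bcl6, Bok, Cenpa, Cnp, Foxo3, Fzd1, Gbp2, Gli3, Gng13, Gpx8, Hacd3, Hk2, Htra1, Ier5, Mobp, Pole, Racgap1, S100a8, S100a9 and Tpm4.

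The lung of mice treated the same way responded to dexamethasone in 5678 genes, 31.2% of those tested. Among all genes tested 15.7% rose in lung and 15.5% fell. Of the 874 genes called in cerebellum, 204 were called in the same direction in lung (23.3% of them and 3.59% of the lung genes), 153 in the other (17.5%) and 517 not at all. Of the 516 that rose in cerebellum, 91 rose in lung (17.6%) and 93 fell (18.0%). Of the 358 that fell in cerebellum, 113 fell in lung (31.6%) and 60 rose (16.8%). The difference between the organs was itself tested in limma, as the effect in lung less that in cerebellum, and it was called for 3879 of all genes (21.3%) and for 515 of the 874 (58.9%). Fam107a rose in both, by 2.28 in lung (limma adjusted p = 0.0062), and its difference was not called (0.356). The retinaldehyde dehydrogenase Aldh1a1, at 9.73 to 9.98 with dexamethasone and 8.62 to 8.95 with vehicle in cerebellum, rose by 1.12 ± 0.10 there and by 0.81 in lung. Aplnr fell by 1.76 in cerebellum and fell by 2.45 in lung, and Col1a1 fell by 1.16 and in lung fell by 1.62, with no called difference for either gene.

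Among genes called in cerebellum, those with the largest differences of effect had varied roles. Htra1, a secreted protease, was at 11.44, 10.57, 10.99 and 10.56 against 10.28, 9.62, 10.06 and 10.64 in cerebellum and rose by 0.74 ± 0.20, whereas in lung it fell by 2.41, a difference of -3.15 (limma adjusted p = 2.52e-06). Its cerebellar arrays overlapped, and that call ended without B39, B50, B78, B79 or B80 (0.0601 to 0.136). The chromatin and clamp-unloading ATPases Atad2 and Atad5 rose by 0.70 and 0.55 in cerebellum and fell by 1.72 and 1.62 in lung. Both had overlapping cerebellar arrays, and both cerebellar calls ended without B49, B50, B52, B78, B80 or B81, and that of Atad5 also without B79 (limma adjusted p 0.0605 to 0.112). With their probe sets averaged the changes were 0.09 and 0.10 and neither was called (0.858 and 0.778). The synaptic pentraxin Nptx1 and the microtubule protein Tppp rose by 1.16 and 1.02 in cerebellum and fell by 1.07 and 1.37 in lung, Tppp not being called in cerebellum without B39, B50, B79 or B80 (0.0577 to 0.0858). Racgap1, a regulator of cytokinesis, fell by 0.57 ± 0.15 in cerebellum and fell by 3.04 in lung, and its cerebellar call ended without B39, B49, B50, B79, B80 or B81 (0.0599 to 0.127). In the other direction Cd68, S100a8 and S100a9 fell in cerebellum and rose in lung by 1.42, 1.36 and 1.72. Epb41l4b, a membrane linker protein, was at 6.07 to 6.47 against 6.98 to 7.65 in cerebellum and fell by 0.96 ± 0.15, and rose by 1.47 in lung. The probe set used was chosen on all 16 arrays, and in cerebellum its other 2 changed by 0.09 and 0.47, neither called, so that their average changed by -0.13 (limma adjusted p = 0.609). Lipoprotein lipase, Lpl, fell by 0.91 ± 0.22 and rose by 1.25 in lung, the fall not being called without B39, B79 or B80 (0.0501 to 0.0701). Tyrobp, Icam1 and Slc39a8 also fell in cerebellum and rose in lung, by 1.20, 1.14 and 0.92, the fall of Icam1 not being called without B50, B78 or B79 (0.0602 to 0.0717). Txnip fell in cerebellum and had a lung change of 0.51 (limma adjusted p = 0.159), and Fkbp5 rose by 2.33 in lung, a difference of 2.34 that was called (0.000393).

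**Figure D5:**
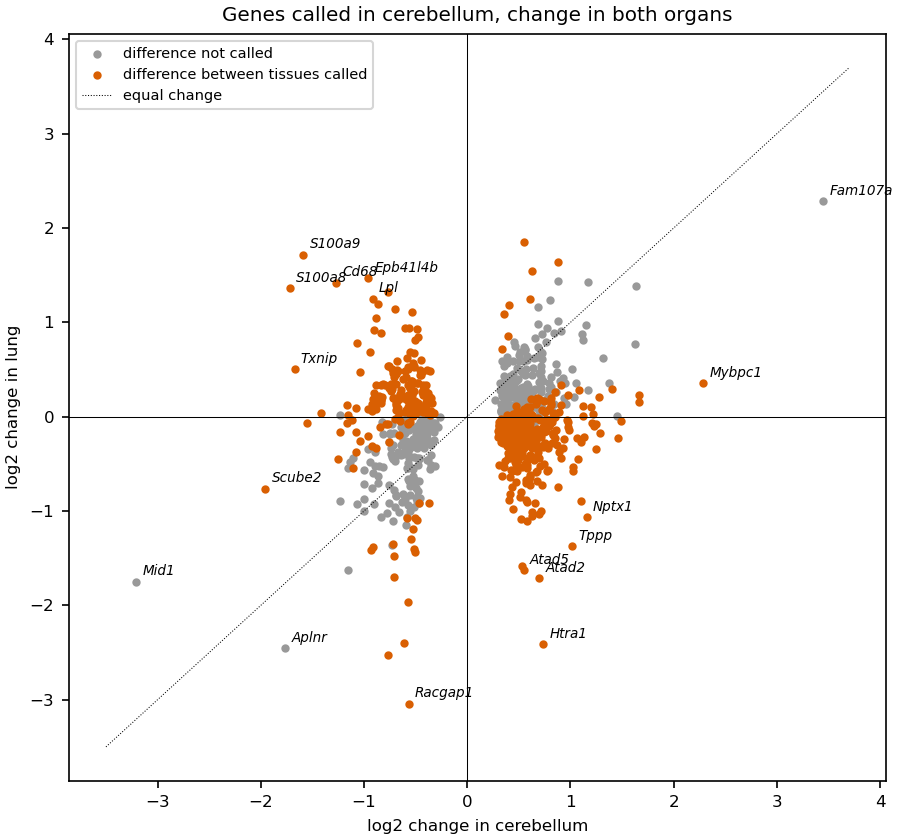
Log2 change with dexamethasone in cerebellum (horizontal) and in lung (vertical) of the 874 genes called in cerebellum, orange where the difference between organs was called (515 genes) and grey where it was not. Points on the dotted line would change equally; Fam107a lies at 3.45 and 2.28, and S100a9 at -1.59 and 1.72.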

How the data were processed

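The authors deposited log2 values per probe set. RMA made them, per the submitters' processing notes, with settings and version not given in the sources used here. It also values undetected transcripts and shrinks differences between dim ones. Probe sets listed with 1 gene symbol were kept, and each of 18193 genes took its brightest probe set by the mean of all 16 arrays. Levels were not compared between genes, other than to pick the brightest. limma 3.58.1 in R 4.3.3 fitted a mean for each of the 4 groups to all 16 arrays, with 12 residual degrees of freedom and eBayes. P-values were adjusted by Benjamini-Hochberg over all genes, and errors are moderated standard errors (SE). No set test was run.

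Members, lists and named genes were chosen with earlier results of these data known. Named were the 12 largest rises and 12 largest falls without overlap, the 8 brightest calls each way, a fixed set, up to 5 called (or the 2 brightest) members of each list, and, among genes called in cerebellum and in the difference, the 6 largest differences from lung each way. Of 1151 different genes in the lists 1052 were measured, and some genes were in more than 1 list. Nothing says that arrays came from separate litters, and p-values then measure only how far these arrays spread. All arrays share a hybridization date, so no batch was tested. The fit was tested on simulated data. Alternatives were other probe set rules, a filter on dim genes, repeated normalization, fewer arrays, a variance trend, array weights and covariates.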

Additional observations from a re-analysis of the deposited data

Results flagged for a closer look

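Among the genes named, 20 groups of 4 cerebellar arrays had an array that stood apart from the other 3. Chance alone gives such an array in about 1 in 20 groups, and 166 named genes make 332 groups. In dexamethasone arrays, B39 stood apart for Col3a1 at 10.45, Foxo3 at 9.10, Fzd1 at 10.12 and S100a8 at 8.19. B49 stood apart for Abcc9 at 7.17, Fosl2 at 6.05, Plxna2 at 11.26 and Scd2 at 13.45. B50 did so for Col1a1 at 8.23, Mfng at 6.82 and Pdgfrb at 8.64, and B52 for Cbln3 at 8.85 and Slc39a8 at 8.10. In vehicle arrays, B79 stood apart for Cdk4 at 11.67, Mcm7 at 12.53 and Scd2 at 13.24. B80 did so for Col1a1 at 9.17 and Zic1 at 13.21, and B81 for Aldh1a1 at 8.95 and Xist at 11.41. The 4 treated values of Col1a1 differed by little, so B50 stood apart by a small step.

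The effect of dexamethasone differed between lung and cerebellum, by limma's test of the difference at an adjusted p under 0.05, for 80 of the named genes, and values are the log2 effect in lung minus that in cerebellum. A higher effect in lung means a positive difference, which can be a smaller fall there. A lower effect means a negative difference, which can be a larger fall there. Cdh5, for example, had a change of -0.55 in lung and -1.11 in cerebellum. In the named immune genes with a called difference the effect was higher in lung, by 3.30, 3.08, 2.69, 2.06, 1.84, 1.06, 1.06, 0.91 and 0.54 for S100a9, S100a8, Cd68, Tyrobp, Icam1, Laptm5, Ptprc, Gbp2 and B2m. All of these were named because they were called in cerebellum, where they fell, so that choice favoured a positive difference. Vessel genes with a higher effect by this measure had 1.45, 1.07, 1.01, 0.80, 0.56, 0.56, 0.49, 0.47 and 0.63 for Clec14a, Slc40a1, Angpt1, Tek, Cdh5, Cldn5, Abcc9, Esam and Igfbp7. They too were named after being called lower in cerebellum, so that choice favoured a positive difference. A further 3 vessel genes went the other way, Notch3, Pdgfrb and Flt1, at -0.45, -0.62 and -0.62. Signalling, matrix and transcription factor genes with a higher effect in lung were Tgfbr2, Id1, Dhrs3, Bmf, Foxo3, Foxc1, Scube2, Col2a1, Slc39a8 and Tfap2a, at 1.09, 0.95, 1.09, 1.02, 0.81, 0.84, 1.19, 1.11, 1.82 and 1.18. The same limit holds for them, since all were named after being called lower in cerebellum. Others with a higher effect in lung were Epb41l4b, Txnip, Lpl, Fkbp5, Per1, Hsd11b1, 8430419K02Rik, Bcas1, Rps6, Gpx8 and Ier5, at 2.43, 2.18, 2.17, 2.34, 1.20, 0.94, 1.48, 0.74, 0.67, 0.58 and 0.56, among them the glucocorticoid-induced Fkbp5 and Per1. Division genes had a lower effect in lung, at -2.47, -2.65, -2.41, -2.17, -1.76, -1.39, -1.27, -0.87, -0.74, -0.61 and -0.46 for Racgap1, Top2a, Atad2, Atad5, Cenpa, Pole, Mki67, Mcm7, Ccnd2, Cdk6 and Pcna. All of these division genes fell in lung. The change of Top2a was -2.96 in lung and -0.31 in cerebellum, and that of Mki67 was -1.92 and -0.64. Some neural and glial genes had a lower effect in lung, with -3.15, -2.39, -2.22, -1.68, -1.33, -1.27, -1.37, -0.79, -0.58, -1.44 and -0.65 for Htra1, Tppp, Nptx1, Gabra2, Gabra6, Chn2, Sox11, Cnp, Gpr17, Itih3 and Slc4a4. Apart from Sox11, these were named after being called higher in cerebellum, so that choice favoured a negative difference. The oligodendrocyte precursor gene Bcas1 and the interneuron factor Tfap2a, given above, went the other way. Gabra6 lay at only 3.92 to 4.73 on the lung arrays, near the lowest value in the data of 3.15, and its lung change was -0.10. The large cerebellar rises Mybpc1, Ptchd4, Fgf1, Trmt1l, Cebpg, Zfp93 and Mthfd2 had differences of -1.93, -1.51, -1.11, -1.46, -1.07, -1.59 and -1.52. The remaining lower effects were those of Gli3, Ptch1, Apcdd1, Fzd1, Apc, Ahcyl1, Hax1, Zfand5 and Galnt11, at -0.75, -0.61, -0.47, -0.72, -0.60, -0.44, -0.54, -0.65 and -0.42.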

How the results depend on the processing

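The 874 calls rest on 4 arrays a group, whose number limits the precision. Against 516 genes higher and 358 lower, each probe set tested on its own gave 814 and 602, and array weights 962 and 737. Leaving out each array in turn gave 305 to 499 higher and 201 to 349 lower. The difference between the organs, called for 3879 genes, was called for 5950 probe sets tested on their own. The other settings (probe sets averaged, dim genes left out, quantile or loess normalization applied again, cerebellar arrays alone, a variance trend, Xist as a covariate) kept the counts they gave within 1.5 times, the cerebellar arrays alone giving no difference between organs; the share higher was 59.0%, and 50.5% after quantile normalization. Added after the data were seen, the brainstem covariate gave 696 and 460, and leaving out B39 and B79 together 414 and 260. No paired analysis was possible because the groups share no replicate numbers.

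Of the 133 named genes that were called, Nfe2l2 changed direction, at -0.0594 with its probe sets averaged, and no other did under these settings. Among named genes not called, probe sets averaged turned Calb1 (-0.0595), Fkbp5 (0.0411), Hsp90aa1 (0.0287) and Ncoa1 (0.0112). Array weights turned Ccnd2 (0.0194), Fkbp5 (0.0174), Mycn (0.149), Olig1 (-0.0566), Scd2 (-0.0238) and Sgk1 (-0.0692). Without B39 and B79 together Ccnd2 (0.0997), Cdk4 (0.0473), Mycn (0.253), Olig1 (-0.221), Pcna (0.0217), Scd2 (-0.0557), Sgk1 (-0.084) and Tsc22d3 (-0.0453) turned. With single arrays left out the change ranged from -0.16 to 0.0326 for Ccnd2, -0.0418 to 0.0146 for Fkbp5, -0.0695 to 0.26 for Gli1, -0.15 to 0.18 for Mycn, -0.065 to 0.011 for Ncoa1, -0.12 to 0.0925 for Nr3c2, -0.0779 to 0.19 for Olig1, -0.0013 to 0.14 for Pcp4, -0.0867 to 0.31 for Per1, -0.0437 to 0.075 for Scd2 and -0.053 to 0.13 for Sgk1. The cause of these turns was not tested.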

Other observations

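Growth factor and patterning pathways changed at single members. Of 29 genes of the TGF-beta and BMP pathways 4 fell and none rose, with a median of -0.13. The receptor Tgfbr2 was at 8.41, 8.33, 8.37 and 8.48 with dexamethasone and at 9.25, 9.14, 9.04 and 9.13 with vehicle and fell by 0.74 ± 0.09 (limma adjusted p = 0.000263), with 1 of 3 probe sets called. The target Id1, the decoy receptor Bambi and the matrix protein Tgfbi fell by 0.46, 0.47 and 0.72. Without B49, B50, B79 or B81 only 1 gene of the list fell, and without B52 or B78 2. Of 29 Wnt genes the antagonist Apcdd1 was at 9.99, 10.43, 10.30 and 10.34 against 11.16, 11.24, 11.13 and 11.16 and fell by 0.91 ± 0.10 (limma adjusted p = 0.000102). The receptor Fzd6 fell by 0.69 ± 0.12 on 1 of 3 probe sets, and not with them averaged (limma adjusted p = 0.158), and Fzd1 rose by 0.49 ± 0.13, but not without B49, B50, B52, B78, B79 or B80 (0.0636 to 0.0945). Of 20 Notch genes Mfng, a glycosyltransferase that modifies Notch, Notch3 and Notch2 fell by 0.64, 0.47 and 0.37, with 1 of the 3 still called without B79. Fgf7 rose by 0.66 ± 0.15 beside Fgf1 among 23 FGF genes, although not without B49, B52 or B79 (0.0506 to 0.0529).

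Insulin-like growth factor binding proteins, retinoid enzymes and cell death genes gave further calls. Igfbp4, which sequesters insulin-like growth factors, was at 10.41, 10.43, 10.59 and 10.50 with dexamethasone and at 11.28, 11.39, 11.15 and 11.44 with vehicle. It fell by 0.83 ± 0.09 (limma adjusted p = 9.68e-05), with 5 of 6 probe sets called. Igfbp7, made by vessels, fell by 0.38 ± 0.11, a call that ended without any array but B80 (0.0731 to 0.152). Among 17 retinoid genes the reductase Dhrs3 was at 8.07 to 8.16 against 8.48 to 8.97 and fell by 0.60 ± 0.12, while Aldh1a1 rose. The BH3-only gene Bmf and the Bcl2 relative Bok fell by 0.74 ± 0.14 and 0.55 ± 0.14 among 18 cell death genes. With its probe sets averaged Bmf changed by -0.25 and was not called (limma adjusted p = 0.117), and Bok did not without B39, B49, B50, B52, B79 or B80 (0.0669 to 0.117). The zinc transporter Slc39a8, at 7.82 to 8.10 against 8.57 to 9.07, fell by 0.90 ± 0.16 among 14 metallothionein and zinc transporter genes. The guidance receptor Plxna2, at 11.26 to 11.41 against 10.88 to 11.05, rose by 0.43 ± 0.10 and was the only call among 33 guidance genes, though not without B39 and B79 together (limma adjusted p = 0.0758). Otx2, a transcription factor of choroid plexus, was at 7.54 to 8.11 against 8.34 to 8.59 and fell by 0.60 ± 0.13, the only call among 18 choroid plexus genes. None of 19 clock, 16 imprinted growth or 15 trophic factor genes was called. Called genes lay on every autosome and on the X chromosome, from 3.45% of tested genes on chromosome 19 to 6.97% on chromosome 18, with 4.21% on the X chromosome and 0 of 9 on the Y chromosome.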
